A study of Mus musculus with 9 samples.

Results

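The genes for the proteins of the cytosolic ribosome were examined in 3 sorted dendritic cell (DC) groups of mouse spleen, with 3 samples in each. The genes were taken from the deposited table by name and type: protein-coding genes with an Rpl or Rps name of the cytosolic series, the stalk genes Rplp0, Rplp1 and Rplp2, and Rpsa, without the ribosomal S6 kinases. The rule found 83 of 54532 listed genes, 51 of the large subunit and 32 of the small subunit. Fau, which encodes a ribosomal protein fused to a ubiquitin-like protein, Rack1 and the copies Rpl36al and Rps27rt lie outside the naming rule and were followed beside it.

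The N-mDC group held mature conventional DCs sorted from spleens of healthy, untreated mice. T-DCs were CD11c+ cells with low surface MHCII, and T-mDCs were mature conventional DCs, both from mice with T cell acute lymphoblastic leukemia (T-ALL). In that model c-kit+ marrow cells of C57BL/6J mice received a retrovirus carrying the intracellular domain of Notch1 with GFP (MSCV-ICN1-IRES-GFP), and the GFP+ leukemia cells were passed to mice that were not irradiated, so the host's own DCs were still present. Female mice of young adult age were used, and cells were enriched with CD11c beads before sorting. T-DCs were defined by low MHCII, so MHCII is not a result here, and nothing in the sources used here says whether samples were separate mice or pools, or whether T-DCs and T-mDCs came from the same mice. The p-values below therefore measure the spread between these samples, which may be partly technical.

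Ribosomal proteins are assembled with ribosomal RNA in the nucleolus into the 40S and 60S subunits, in equal numbers of nearly every protein, and the stalk of the large subunit carries extra copies of Rplp1 and Rplp2. Their messenger RNAs are among the most abundant of any cell, and most begin with a run of pyrimidines, the terminal oligopyrimidine (TOP) motif, through which mTORC1 and Larp1 control their translation. DCs change their rate of protein synthesis as they mature. In the T cell lineage Rpl22 is known as a gene lost in part of T-ALL, but the cells here were sorted as DCs, not as leukemia cells.

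Some features of start sites, which the naming rule did not use, were more frequent in the family than in all genes, though each stood in a minority of its starts. Promoter sequence was available for 63 of the 83 genes (75 annotated starts) in RefSeq on build GRCm38.p6. A run of at least 8 C or T on the gene's strand within 20 bases of the start stood in 41.3% of these starts, against 16.0% of the 32851 starts of all genes. The letters CTTTCC were there in 14.7% against 1.95%. The letters CCGGAAG, the core of ETS-type motifs, were found on either strand between 250 bases before and 50 after the start in 36% against 8.86%, while AAGATGGC (YY1-type) was found in 10.7% against 2.75%, and TATAAA, on the gene's strand between 40 and 15 bases before the start, in 1.33% against 1.99%. A match is a description of the letters and not a bound site. The 5 starts below, 60 bases before and 10 bases after, show the longest pyrimidine run from 20 bases before the start onward in capitals for Rps27, which was lower in T-DCs, for its paralog Rps27l, for Rps6 and Rpl5, and for Rpl38, among the genes with the widest spread between samples. All 5 hold a run of 9 or 10, unlike most starts of the family. A second annotated start of Rps27l, with a longest run of 4, is not shown. The 5 starts lie at chr3:90213639-90213708 (minus strand), chr9:66946026-66946095 (plus), chr4:86857358-86857427 (minus), chr5:107900468-107900537 (plus) and chr11:114668520-114668589 (plus).
Rps27: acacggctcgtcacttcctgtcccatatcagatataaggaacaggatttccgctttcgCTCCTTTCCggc
Rps27l: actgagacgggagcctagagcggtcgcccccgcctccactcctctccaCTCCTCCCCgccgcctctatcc
Rps6: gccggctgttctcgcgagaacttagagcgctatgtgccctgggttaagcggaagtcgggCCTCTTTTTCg
Rpl5: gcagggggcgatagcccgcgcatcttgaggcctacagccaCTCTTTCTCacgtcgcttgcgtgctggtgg
Rpl38: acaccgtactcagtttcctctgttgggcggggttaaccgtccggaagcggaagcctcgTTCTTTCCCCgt

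The genes are spread over 19 chromosomes, and 30 of them overlap 58 annotated small nucleolar or related RNAs on the same strand. In Rpl4, 5 such RNAs are annotated. The coding sequences have a median of 456 bases, from 75 (Rpl41) to 1257 (Rpl4).

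The samples held between 15360815 and 18440913 reads on genes. Levels are given as FPKM, reads scaled to the length of the gene and to the size of the library. Across genes they are only roughly comparable, because the gene length used by the authors, which takes in all annotated exons, was a median of 3.76 times the coding length and ranged from 1.22 to 16.1 times. Of the 8 DC markers, 5 were called lower in T-DCs against N-mDCs (limma), and their summed level was 704, 332 and 186 FPKM in T-DC samples 1 to 3, against 641 to 748 in N-mDCs and 715 to 798 in T-mDCs. T-DC samples 2 and 3 carried erythroid RNA, with 3.82% and 3.005% of their reads on hemoglobin genes against 0.0422% in T-DC sample 1, 0.00732% to 0.405% in N-mDCs and at most 0.0140% in T-mDCs. T-mDC samples 2 and 3 were far more alike than the other pairs within groups, with a chi-square per gene of 1.85 (pure counting noise would give 1) against at least 8.11 for the others. They are kept as separate samples here.

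Most of the family was expressed at a high level. Rplp1, a protein of the acidic stalk that recruits elongation factors, had the highest mean over the 9 samples at 2385 FPKM, followed by Rps3a1, a protein of the 40S subunit, at 1347 and Rplp0, the base of the stalk, at 1318. At the low end of the tested genes were Rpl13a at 15.9, Rpl24 at 2.06 and Rps10 at 1.40 FPKM. Genes were tested when 3 or more samples reached an FPKM of 1, a condition met by 80 of the 83. Rpl3l, the muscle paralog of Rpl3, reached 3.33 FPKM in T-DC sample 1 and lay between 0 and 1.16 in the other samples. Rpl39l lay between 0.134 and 0.851 FPKM, and Rpl10l, known from the testis, was listed at 0 in all 9 samples. Rpl3l and Rpl39l stand at the low end of the plot of levels, and Rpl10l, at 0, is not drawn.

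**Figure D1:**
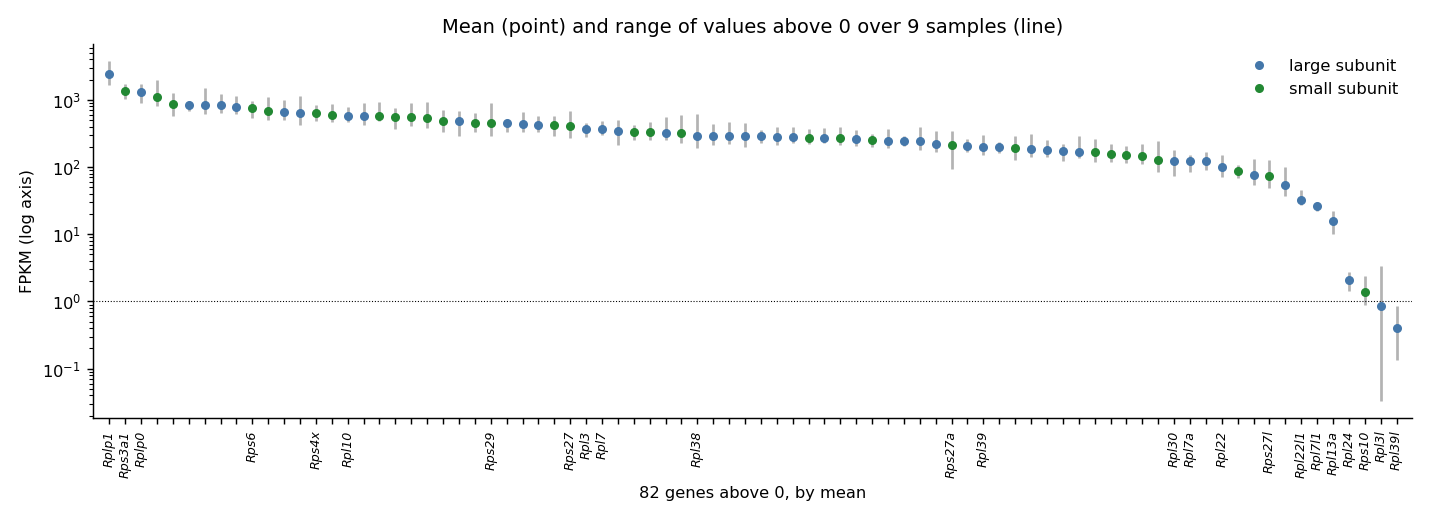
Mean FPKM (points, log axis) of the 82 genes above 0, ordered by mean, with the range of the values above 0 over the 9 samples as a line; names are given for genes described in the text. Rplp1 stands at 2385 FPKM, and Rpl24, Rps10, Rpl3l and Rpl39l stand near or below the dotted line at 1 FPKM.

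The low values of Rps10 and Rpl24 stood beside reads on near-identical copies. Of the 83 coding sequences, 68 share more than 50% of their 50-base windows exactly with a transcript of another annotated gene, and 70 have at least 1 annotated copy holding 25% of their windows or more. Rps10, a protein of the 40S head, had 494 reads over the 9 samples, while the 3 other genes that share its sequence held 38749, which is 98.7% of both together. Rps10-ps2 alone, a processed pseudogene at chr16:20822145-20822640 (GRCm38, minus strand), held 36999. The coding sequence of Rps10 (gene at chr17:27630418-27636669, minus strand) and this copy differ at 5 of 495 aligned positions, all in the last 120 bases, shown with the differing positions in capitals.
Rps10: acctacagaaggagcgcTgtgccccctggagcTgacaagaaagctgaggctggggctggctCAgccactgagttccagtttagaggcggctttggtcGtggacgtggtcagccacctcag
Rps10-ps2: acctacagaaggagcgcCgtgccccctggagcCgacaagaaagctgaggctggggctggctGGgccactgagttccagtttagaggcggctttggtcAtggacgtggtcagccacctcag

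Rpl24 had 329 reads and its copies 1066. With the reads of copies added, Rps10 lay between 78.0 and 146 FPKM, whereas Rpl24 stayed low, between 6.07 and 14.2. Rps10 and Rpl24 each overlap an annotated gene on the same strand (RPS10-NUDT3 and Gm28037), and both of these held 0 reads. For Rpl13a, also at the low end, the share of copies was 5.31%. It overlaps Gm45713 on the same strand, which held 1 read. How reads matching several places were counted is not given in the sources used here, so the level of these genes is uncertain. For some highly expressed genes the copies held less: their share was 1.40% for Rps3a1, 0.611% for Rplp0 and 5.12% for Rps6. It was 57.5% for Rpl17 and 58.5% for Rpl21.

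Rpl17 also gave a case in which the near-identical T-mDC samples 2 and 3 differed. Of the 80 tested genes, 77 were within 1.3-fold of each other in these 2 samples, and the exceptions were Rps10, Rpl17 and Rps27a. Rpl17 had 9151 and 5147 reads in T-mDC samples 2 and 3, while its copies had 8693 and 11003, so that gene and copies together moved less than the gene alone. Rps27a, which encodes a ubiquitin fused to a 40S protein, had 5610 and 9095 reads, and its copies only 494 and 458. It was the gene with the widest spread within groups, from 106 to 341 FPKM in N-mDCs and from 94.7 to 251 in T-mDCs, whereas the T-DC samples lay between 214 and 244.

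**Figure D2:**
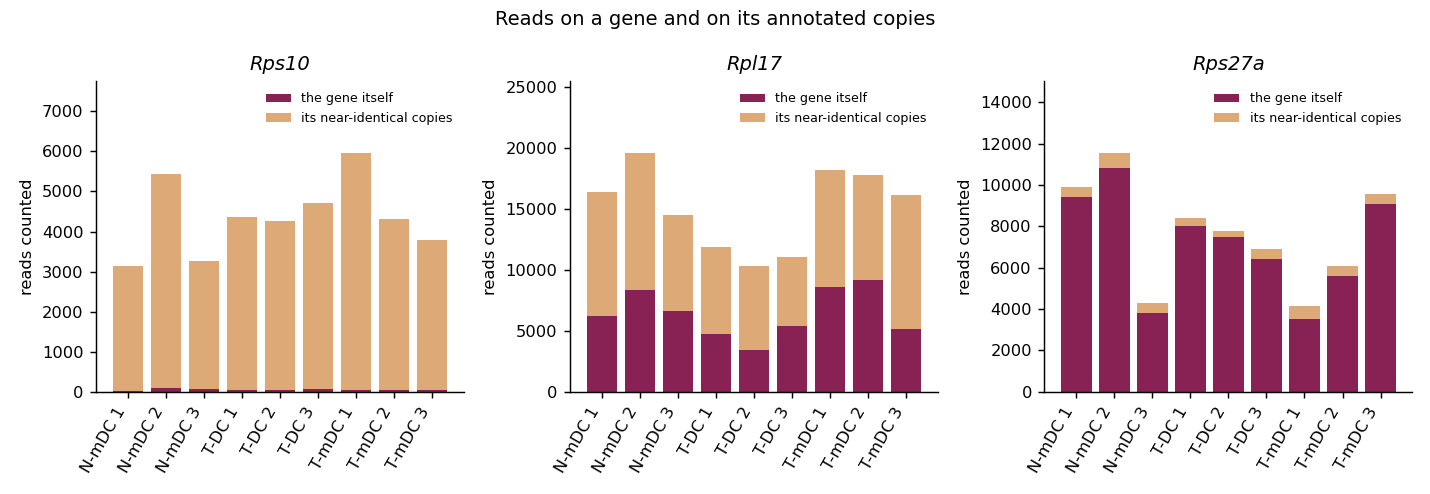
Reads counted in each of the 9 samples on Rps10, Rpl17 and Rps27a (purple) and, stacked above, on their annotated near-identical copies (tan). Nearly all reads of the Rps10 group lay on copies, the split of Rpl17 differed between T-mDC samples 2 and 3, and the difference of Rps27a between these samples lay on the gene itself.

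The family took up 5.47%, 7.25% and 4.43% of the reads on genes in N-mDC samples 1 to 3, 3.95%, 4.09% and 5.68% in the T-DC samples and 5.52%, 5.31% and 5.18% in the T-mDC samples. The group values were 5.71% ± 1.43, 4.58% ± 0.960 and 5.34% ± 0.170 (SD, n = 3 each). N-mDC sample 2 was the highest of all and T-DC sample 1 the lowest, and the N-mDC samples alone covered most of the whole range, so the groups overlapped in the share of reads. They did not overlap as a share of TPM, which divides by gene length before totals are formed: the T-DC samples had 7.59%, 6.58% and 7.74%, below all N-mDC samples (9.66%, 11.3% and 7.99%) and all T-mDC samples (9.54%, 9.70% and 9.47%). The TPM totals include erythroid RNA, whose markers summed to 619, 58962 and 43310 FPKM in T-DC samples 1 to 3. A TPM share without these genes was not computed, and their part in the gap was not tested. Between any pair of groups, with 3 samples each, a two-sided exact permutation test could not pass 0.05, and no permutation test was run. In bulk samples fewer cells of a type and less RNA per cell cannot be told apart. Both subunits behaved alike in this respect: the large subunit took 3.17% ± 0.766, 2.597% ± 0.580 and 2.96% ± 0.0952 of reads, and the small subunit 2.55% ± 0.664, 1.98% ± 0.380 and 2.38% ± 0.0747, each in the order N-mDC, T-DC and T-mDC.

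The genes moved together from library to library. All 80 tested genes were higher in N-mDC sample 2 than in N-mDC sample 3, with a median ratio of 1.69 and a range from 1.23 to 3.20. N-mDC sample 2 was the highest of all 9 samples for 68 genes. Among T-DCs, sample 3 was the highest for 74 of 80 genes. After each sample was divided by its mean family level, which removes the shared shift by construction, the median SD within groups fell from 0.294 to 0.124 on the log2 scale and was smaller for 77 of 80 genes. The difference between N-mDC samples 2 and 3 was larger for short genes, with a median of 1.90-fold over the 10 genes with a coding sequence under 300 bases and 1.67-fold over the other 70. Across the genes, Spearman's rho of this difference with coding length was -0.36, given as a description over genes of the same 2 libraries.

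Markers of other cells differed between the same libraries. N-mDC sample 2 had a summed erythroid marker level of 5368 FPKM against 99.99 and 488 in N-mDC samples 1 and 3, and a plasma cell marker level of 531 against 92.7 and 166. T-DC sample 3 had the highest sum of the 16 proliferation genes at 1950 FPKM, against 235 in T-DC sample 1 and 1694 in T-DC sample 2. The erythroid sums of T-DC samples 1 to 3 were 619, 58962 and 43310 FPKM, beside family shares of 3.95%, 4.09% and 5.68% of reads. The 9 neutrophil markers summed to 4381 FPKM in T-DC sample 2, 1536 in T-DC sample 3 and 9.33 in T-DC sample 1. The 9 T-lineage markers had sums of 66.8 to 86.3 FPKM among N-mDC samples, 4.86 to 48.0 among T-DC samples and 54.4 to 125 among T-mDC samples. The 8 red pulp macrophage markers had sums of 2172 to 4478 FPKM among N-mDC samples, 696 to 3660.2 among T-DC samples and 497 to 1749 among T-mDC samples. The part of any of these markers in the family's level was not tested.

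**Figure D3:**
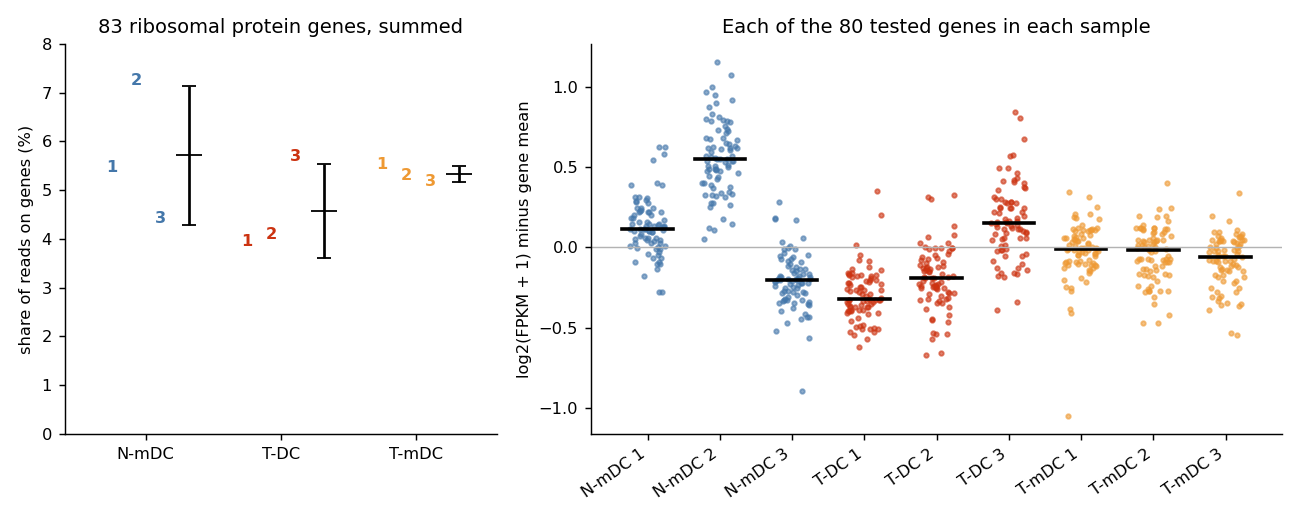
Left, the share of reads on the 83 genes in each sample (numbers are sample numbers, bars mean ± SD, n = 3). Right, log2(FPKM + 1) of each of the 80 tested genes minus its own mean over the 9 samples, with the median of the genes as a black line. The whole cloud is shifted upward in N-mDC sample 2 and downward in T-DC sample 1.

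The first comparison, T-DCs against N-mDCs, asks whether the family differs between the low-MHCII cells of leukemic spleen and the mature DCs of normal spleen. Of the 80 tested genes, 2 were lower in T-DCs and 0 higher (limma, adjusted p under 0.05), which is 2.5% of the family, against 16.4% of all 12746 tested genes called in either direction, 10.3% lower and 6.1% higher. The 2 genes were Rps27 and Rpl30. Most of the others lay on the lower side without passing the test: 70 of 80 log2 fold changes were below 0, and their median was -0.28, against 0.05 for all genes. The median was -0.28 for the large and -0.25 for the small subunit. Without N-mDC sample 2 the median was -0.06 and no gene was called, without N-mDC sample 3 it was -0.46, and with the erythroid markers as a covariate it was -0.59. It was -0.39 in TPM, where the median of all genes was -0.04, and -0.17 after quantile normalization.

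Rps27, a small zinc-finger protein of the 40S subunit (gene at chr3:90212522-90213651, minus strand), had 601, 673 and 438 FPKM in N-mDC samples 1 to 3, and 368, 267 and 296 in the T-DC samples. T-mDC samples 1 to 3 had 404, 321 and 303. The highest T-DC sample was below the lowest N-mDC sample, and the T-mDC samples overlapped the T-DC samples. The log2 fold change of T-DCs against N-mDCs was -0.87 ± 0.23 (SE), with an adjusted p of 0.0379 in limma. Every 50-base window of its coding sequence is also found in Rps27rt, a protein-coding copy on chromosome 9, which had 331, 355 and 265 FPKM in N-mDCs and 217, 191 and 140 in T-DCs, with a log2 fold change of -0.80 ± 0.22 and an adjusted p of 0.0419 in limma. Reads of Rps27 and Rps27rt cannot be told apart within the coding sequence. With the reads of copies added, Rps27 kept a log2 fold change of -0.85 with an adjusted p of 0.036 in limma.

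Rpl30, a protein of the 60S subunit (gene at chr15:34440505-34443640, minus strand), had 172, 180.4 and 143 FPKM in the N-mDC samples and 93.4, 74.2 and 108 in the T-DC samples. Its T-mDC samples had 125, 107 and 98.9. T-DCs were again below all N-mDC samples and overlapped T-mDCs. The log2 fold change was -0.85 ± 0.20 (SE), with an adjusted p of 0.0242 in limma, and -0.70 with an adjusted p of 0.0516 once the reads of its copies were added. Both calls were fragile: over 24 alternatives the adjusted p of limma ranged from 0.0118 to 0.231 for Rps27 and from 0.0145 to 0.127 for Rpl30, and leaving out N-mDC sample 1, N-mDC sample 2, T-DC sample 2 or T-mDC sample 2 ended both. The log2 fold change stayed negative in all 24, between -1.05 and -0.60 for Rps27 and between -0.97 and -0.58 for Rpl30. With the erythroid markers as a covariate 0 genes were called, in a fit that called only 3.7% of all genes. With each sample scaled to the family, which removes its shared shift by construction, 0 genes were called as well. After that scaling 15.5% of all genes were called, 10.3% higher and 5.16% lower. By unadjusted p under 0.05 the counts were 10 genes as deposited and 8 after scaling to the family.

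The next genes in this comparison did not pass the test. Rps29, a short zinc-binding protein of the 40S subunit, had 632, 888 and 477 FPKM in N-mDCs and 374, 289 and 417 in T-DCs, with a log2 fold change of -0.85 ± 0.27 and an adjusted p of 0.0636 in limma. Rps21, another short 40S protein, had a log2 fold change of -0.74 ± 0.25 (adjusted p 0.0766 in limma), and Rpl35a, of the 60S subunit, -0.69 ± 0.24 (adjusted p 0.079 in limma). The T-DC and N-mDC samples did not overlap for these 3 genes. In all, T-DC samples lay below every N-mDC sample for 10 of 80 genes (12.5%), against 16.4% of all genes, and above every N-mDC sample for 0, against 16% of all genes. At the upper end, Rps27l had a log2 fold change of 0.36 ± 0.32, Rpl7a 0.29 ± 0.25 and Rps2 0.23 ± 0.33, none of which passed. The 95% interval of the fold change lay within 2-fold in either direction for 57 of 80 genes, so for these a change of 2-fold or more was outside the interval, and it reached 2-fold for the other 23.

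**Figure D4:**
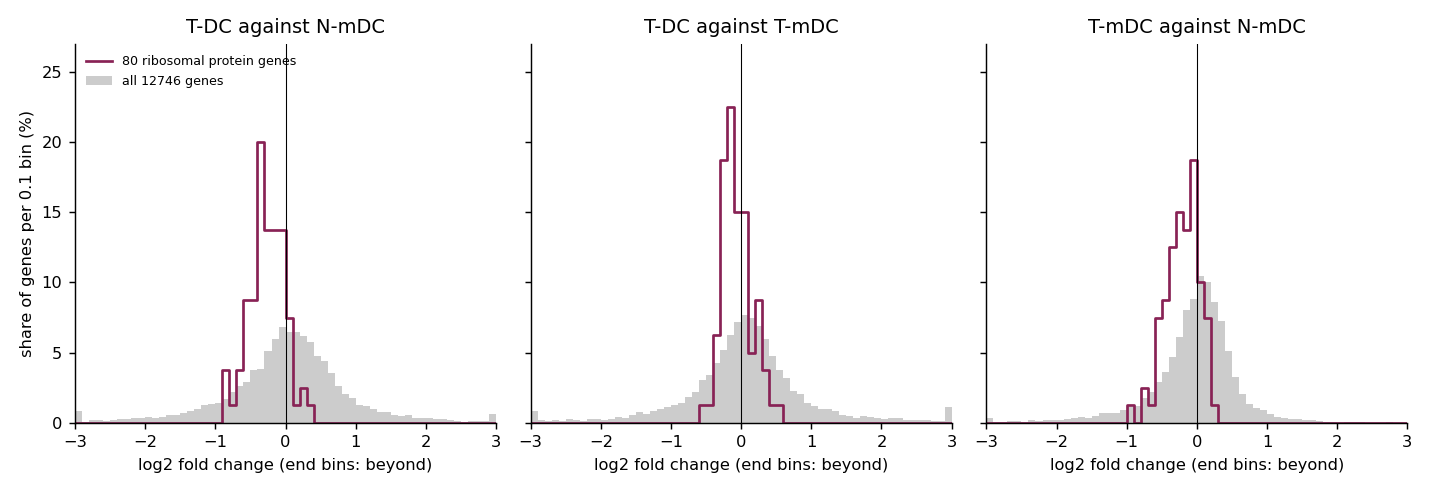
Share of genes in bins of 0.1 of the log2 fold change for the 80 ribosomal protein genes (line) and all 12746 tested genes (grey) in the 3 comparisons, with values beyond 3 in the end bins. The family was narrow beside all genes, with medians of -0.28, -0.10 and -0.18 against 0.05, 0.07 and 0.03.

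**Figure D5:**
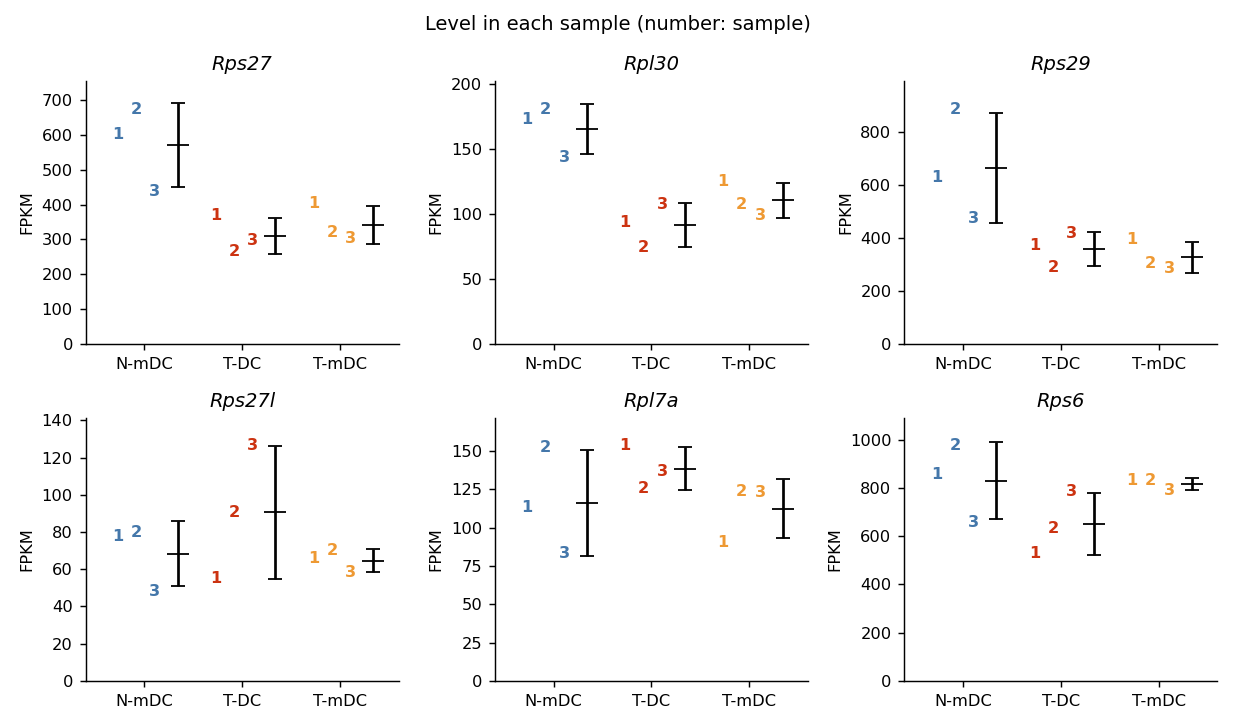
FPKM of 6 genes in each sample (numbers are sample numbers) with mean ± SD (n = 3). T-DC samples lie below all N-mDC samples for Rps27, Rpl30 and Rps29, and these 2 groups overlap for Rps27l, Rpl7a and Rps6.

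The comparison of T-DCs with T-mDCs asks the same within the leukemic spleen. None of the 80 genes was called by limma, against 14.2% of all genes (5.44% higher and 8.79% lower), and 0 had an unadjusted p under 0.05. The voom fit on recovered reads also called 0. Limma after scaling to the family called 0, but that scaling removes the family's shared shift by construction. Its count therefore concerns only genes that depart from the family. After it 9.39% of all genes were called (4.27% higher). The median log2 fold change was -0.10, against 0.07 for all genes, and depended on the setting. It turned to 0.01 without T-DC sample 1, but was -0.21 without T-DC sample 3 and -0.49 with the erythroid covariate. In TPM it was -0.43, where the median of all genes moved to -0.23, with 33 genes at an unadjusted p under 0.05 and 3 called, and after quantile normalization it was -0.34, with 20 at an unadjusted p under 0.05 and 1 called. The largest log2 fold changes were those of Rps27a (0.58 ± 0.48), Rps27l (0.41 ± 0.32) and Rpl38 (0.37 ± 0.34), and the smallest that of Rpl17 (-0.51 ± 0.28). Rps27a and Rpl17 are among the genes that also differed between T-mDC samples 2 and 3. With the reads of copies added, Rpl17 had 854, 864 and 938 FPKM in T-DCs and 1243, 1191 and 1133 in T-mDCs. Rps27a still had 111, 160 and 263 FPKM in T-mDCs. After that addition 0 genes of the family were called in this comparison. The T-DC samples lay below every T-mDC sample for 10 genes (12.5%, against 18.1% of all genes). Rps6, the 40S protein phosphorylated by S6 kinase downstream of mTORC1, was among them, with 529.6, 631 and 785 FPKM in T-DCs and 832, 832 and 789 in T-mDCs, and a log2 fold change of -0.35 ± 0.22. Rpl7a, of the 60S subunit, was the 1 gene higher in every T-DC sample (1.25%, against 16.8% of all genes), with 125 to 153 FPKM against 124 in the highest T-mDC sample. The 95% interval lay within 2-fold for 74 of the 80 genes.

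The comparison of T-mDCs with N-mDCs asks whether the family differs between mature DCs of leukemic and normal spleen. No gene was called by limma, against 2.21% of all genes (0.69% higher and 1.52% lower), and 6 had an unadjusted p under 0.05. The voom fit on recovered reads called 0 as well. Limma after scaling to the family, which removes its shared shift by construction, called 0 of the family and 0.384% of all genes. The log2 fold change was below 0 for 65 of 80 genes, with a median of -0.18 against 0.03 for all genes. The sign of this median was not stable: it was 0.04 in TPM, in which the median of all genes moved to 0.23, 0.13 after quantile normalization and 0.003 without N-mDC sample 2, but -0.36 without N-mDC sample 3 and -0.09 with the erythroid covariate. The lowest values were those of Rps29 (-0.98 ± 0.27, adjusted p 0.117 in limma), Rpl38 (-0.78 ± 0.34) and Rps27 (-0.72 ± 0.23), and the highest those of Rpl23a (0.25 ± 0.21), Rps25 (0.15 ± 0.20) and Rps26 (0.14 ± 0.27). Rpl38, a short protein of the 60S subunit, had 247, 197 and 189 FPKM in T-mDCs and 293, 612 and 260.2 in N-mDCs, with N-mDC sample 2 far above the other samples. T-mDC samples lay below every N-mDC sample for 9 genes (11.2%, against 15.7% of all genes). The N-mDC samples are shared by this comparison and the first, and the T-mDC samples by this one and the second.

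The paralog pairs were compared by their RNA levels in these bulk samples. Rps27 and Rps27l, both of 252 coding bases, differ at 60 positions, marked in capitals, and so are told apart by most reads, unlike Rps27 and Rps27rt.
Rps27: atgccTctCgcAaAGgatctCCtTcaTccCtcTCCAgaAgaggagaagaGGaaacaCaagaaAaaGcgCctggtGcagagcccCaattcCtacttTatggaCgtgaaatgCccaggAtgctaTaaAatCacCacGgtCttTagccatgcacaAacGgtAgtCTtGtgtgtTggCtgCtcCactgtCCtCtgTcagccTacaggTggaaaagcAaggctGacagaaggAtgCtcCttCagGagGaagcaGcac
Rps27l: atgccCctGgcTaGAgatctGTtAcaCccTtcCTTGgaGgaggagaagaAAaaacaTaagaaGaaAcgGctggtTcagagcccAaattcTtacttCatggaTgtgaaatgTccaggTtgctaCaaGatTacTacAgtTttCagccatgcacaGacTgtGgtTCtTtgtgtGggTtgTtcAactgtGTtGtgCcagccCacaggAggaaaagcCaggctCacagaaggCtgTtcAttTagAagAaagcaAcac

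Rps27l, a target of p53, had 77.7, 79.5 and 48.1 FPKM in N-mDCs, 55.1, 90.4 and 126 in T-DCs and 65.6, 70.3 and 58.0 in T-mDCs. It was high in T-DC samples 2 and 3, the samples with erythroid and proliferation RNA, and within the N-mDC range in T-DC sample 1. Rpl22 had 70.6 to 103 FPKM in T-DCs, 94.4 to 153 in N-mDCs and 91.8 to 102 in T-mDCs, with a log2 fold change of T-DCs against N-mDCs of -0.51 ± 0.23 (adjusted p 0.144 in limma). Its paralog Rpl22l1, 70.2% identical in coding sequence, had 28.6 to 38.0, 32.2 to 45.7 and 27.4 to 29.1. Both paralogs were thus expressed in all groups, and neither passed the test in any comparison. Rpl7l1 (56.0% identical to Rpl7) had 22.3 to 30.4 FPKM over all samples, against 303 to 477 for Rpl7. Rpl3 had 278 to 450.4 FPKM, Rpl10 461 to 774 and Rpl39 149.5 to 302, against their nearly silent paralogs above. Rps4x had 490.3 to 826 FPKM, and Rps4l, listed as a pseudogene and so no member, 6.91 to 23.2.

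The stalk genes and the proteins with roles outside the ribosome did not pass the test in any comparison. Rplp0 had 1346, 1554 and 1053 FPKM in N-mDCs, 899, 1422 and 1732 in T-DCs and 1405, 1234 and 1221 in T-mDCs, with a log2 fold change of T-DCs against N-mDCs of 0.003 ± 0.28. Rplp1 (-0.34 ± 0.30) and Rplp2 (-0.34 ± 0.29) lay lower in that comparison. Rplp0 in T-DC samples 1 and 3 covered a wider range than the other 2 groups together. Rpl5 and Rpl11, which with 5S ribosomal RNA bind Mdm2 and thereby act on p53, had log2 fold changes of -0.19 ± 0.18 and -0.41 ± 0.25. Rpsa, the 40S protein also known as the laminin receptor, had -0.16 ± 0.27.

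Among the genes named above that lie outside the naming rule, Fau had 1394, 2227 and 1045 FPKM in N-mDCs and 1169, 853 and 963 in T-DCs, with a log2 fold change of -0.58 ± 0.29, and Rack1 had 0.03 ± 0.22. Of these 4 genes, Rps27rt alone was called by limma in this comparison, and none was called in the other comparisons.

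Other genes of the translation machinery were taken from lists fixed with earlier results of these data known. In most of these lists few genes or none passed the test. For the 73 ribosome biogenesis genes tested, the median log2 fold change of T-DCs against N-mDCs was 0.29, and 64 were above 0. Only 1 was called (1.37%, against 16.4% of all genes). This was Rrs1, which brings the 5S particle into the large subunit (0.88 ± 0.25, adjusted p 0.0445 in limma). T-DC sample 3 had the highest sum of this list, 2078 FPKM, against 1056 and 1395 in the other T-DC samples and 1089 to 1322 in N-mDCs. The 35 initiation factors had a median of 0.39 with 0 called, and the 8 elongation factors 0.31 with 0 called. For the 77 genes of the mitochondrial ribosome, which translates in the mitochondrion and is built from other proteins, the median was 0.36, 67 were above 0, and 4 were called higher, which is 5.19% against 6.1% of all genes: Mrpl44 (0.96 ± 0.20), Mrps22 (0.93 ± 0.25), Mrpl50 (0.83 ± 0.24) and Mrps2 (0.59 ± 0.16). Mrps27 was lower in T-DCs when set against T-mDCs (-0.81 ± 0.23). Among 14 RNA polymerase I genes Znrd1 was lower (-0.99 ± 0.22, adjusted p 0.0188 in limma). The 13 other TOP messenger RNAs had a median of 0.004 with 0 called, and the 7 tested chaperones of ribosomal proteins likewise 0.004 with 0 called. The difference between the medians of these lists and of the family was not tested.

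Among the 19 genes around mTORC1 and Larp1, T-DCs had 2 higher and 2 lower, relative to N-mDCs, which is 21.1% against 16.4% of all genes, so the counts of this small list are near the background. Eif4ebp1, the repressor of cap-dependent initiation that mTORC1 inactivates, had 42.5, 29.9 and 47.8 FPKM in T-DCs, 9.38, 17.99 and 11.7 in N-mDCs and 16.3, 9.17 and 9.21 in T-mDCs. The log2 fold change of T-DCs was 1.57 ± 0.31 when set against N-mDCs and 1.73 ± 0.31 for T-mDCs (adjusted p 0.0124 and 0.00928 in limma). Mlst8, a subunit of mTORC1, was higher than in N-mDCs (0.86 ± 0.19). Sesn2, a stress-induced inhibitor of mTORC1, was lower in T-DCs than in both other groups (-1.74 ± 0.21 and -0.80 ± 0.21), and Sesn3 was lower than in N-mDCs (-1.41 ± 0.33), while Sesn1 was higher than in T-mDCs (1.13 ± 0.27). Of the 9 tested genes of the Myc network, which drives ribosome production, T-DCs had 1 higher and 1 lower relative to N-mDCs. This is 22.2% against 16.4% of all genes, and relative to T-mDCs it was 22.2% against 14.2%. Mycl, a Myc family gene of conventional DCs, was lower (-2.20 ± 0.45 against N-mDCs and -3.10 ± 0.45 against T-mDCs). Mxi1, a partner of Max that opposes Myc, was higher (1.88 ± 0.21 and 1.75 ± 0.21). Myc itself had -0.36 ± 0.36 against N-mDCs. Among the 7 genes of the 5S particle and p53, T-DCs had 1 higher and 1 lower relative to N-mDCs (28.6%, against 16.4% of all genes). Ccng1 was higher (0.72 ± 0.21) and Cdkn1a, the cell cycle inhibitor p21, lower in T-DCs (-1.96 ± 0.28). Cdkn1a was also lower in T-mDCs than in N-mDCs (-1.63 ± 0.28). In T-mDCs against N-mDCs no gene of the mTORC1, Myc, initiation, elongation, biogenesis or mitochondrial lists was called.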

How the data were processed

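RNA from 9 sorted spleen DC samples was sequenced by a commercial provider. The authors deposited FPKM values and a gene length for 54532 genes on build mm10, named in the submitters' processing notes. The library kit's strand setting, aligner, counting and handling of multiply matching reads are not given in the sources used here. FPKM times gene length gave whole reads to within 4.56e-05 of a read. Tests used log2(FPKM + 1) of the 12746 genes reaching an FPKM of 1 in 3 or more samples. The test was limma 3.58.1 under R 4.3.3 (a linear model over the 3 groups, moderated with a trend, two-sided, Benjamini-Hochberg threshold 0.05, all genes). Fold changes of low genes are understated by the added 1. Samples scaled to the mean log2 level of the family, and reads of copies added to each gene, were alternatives chosen after seeing the data. The fit was tested on simulated data. Annotation came from GENCODE M21 (GRCm38), where 81 of the 83 genes had the same start and end, and promoters from RefSeq. Copies are genes with transcripts holding at least 25% of a gene's 50-base coding windows. Coding alignments used Biopython 1.88.

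The members and lists were chosen with earlier results of these data known. Genes named are those called, the 3 largest and 3 smallest fold changes where none was called, the paralog pairs, the stalk genes with Rps6, Rpsa, Rpl5 and Rpl11, the 3 highest and 3 lowest levels, those not tested, and at most 4 called examples of other lists. Rps21, Rpl35a, Rps2, Rpl7a, Rpl21, Myc, Fau, Rack1 and the genes with shared reads were named after their values were seen. A few genes that this rule would name are not reported here.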

Additional observations from a re-analysis of the deposited data

How the results depend on the processing

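The count of 2 called genes in T-DCs against N-mDCs was 1 without a filter, 1 after quantile normalization and 5 in TPM. It was 0 with only the 2 groups fitted, with the erythroid covariate or with T-mDC samples 2 and 3 averaged. Those fits called 8.39%, 3.7% and 10.9% of all genes, against 16.4% in the main fit. Of the alternatives chosen after seeing the data, scaling to the family, which removes its shared shift by construction, gave 0. Adding the reads of copies gave 1. Leaving out each sample gave 0 to 3: 0 without T-mDC sample 2, T-DC sample 2, N-mDC sample 2 or N-mDC sample 1, 1 without T-DC sample 3 or T-mDC sample 3, and 3 without T-DC sample 1 or N-mDC sample 3. In T-DCs against T-mDCs, TPM gave 3 lower (Rps6, Rpl23a and Rps15a) and quantile normalization 1 (Rps25), where the count was 0 otherwise. In T-mDCs against N-mDCs it was 0 under every alternative. A pseudocount of 0.1, the stricter filter (FPKM of at least 5), median-of-ratios scaling, hemoglobin left out of the total, no trend and voom changed no count.

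With the replicate number as a block, 0 genes were called in T-DCs against N-mDCs. Deviations of same-numbered samples of different groups correlated between -0.47 and 0.27, and those of differently numbered samples between -0.36 and 0.43. With 3 samples a group, these values cannot show whether the numbers pair the samples.

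The family share was 9.64% ± 1.65, 7.30% ± 0.628 and 9.57% ± 0.118 of TPM (SD, n = 3), in the order N-mDC, T-DC and T-mDC, without overlap between T-DCs and the other groups, and 5.58% of reads in T-mDCs with pseudogenes added. The TPM totals include the erythroid RNA of T-DC samples 2 and 3, and no TPM share without it was computed. For 99 fold changes of 33 genes, which leave out Rps21, Rpl35a, Rpl21, Rps14 and Rps15a, 2370 alternative values gave 0 reversals of a call, 23 lost and 5 gained calls, and 180 changes of sign among values called in neither. Outside these genes, Rps21 gained a call under 2 alternatives and Rps14 and Rps15a under 1 each. The cause of these shifts was not tested.

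With 3 samples a group, the median half-width of the 95% interval was 0.56 on the log2 scale, about 1.5-fold. This interval is not adjusted for the number of genes tested, whereas a call rests on the adjusted p. In T-DCs against N-mDCs, Rps29 at -0.85 and Rps21 at -0.74 were not called (adjusted p 0.0636 and 0.0766 in limma). Rps27 at -0.87 and Rpl30 at -0.85 were called. Changes of less than about 1.5-fold were thus not detectable for most genes, and larger ones could also be missed.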
